A study of Mus musculus with 6 samples.

Results

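The antiviral interferon-stimulated genes are a set of 43 genes, out of 55421 in the deposited count table, that encode antiviral effectors and ubiquitin-like modifiers induced by type I interferon. They were selected by gene symbol with the genotype difference in these same libraries already known, so their genotype differences are given below as a description and support no further statement. The samples were whole lung lobes of mouse embryos at stage E18.5, dissected without letting air into the lung. There were 3 wild-type samples and 3 samples of genotype Mll3FDC/FDC (Mll3 KO), called knockout here. Mll3, listed under its current symbol Kmt2c, encodes a histone methyltransferase that acts at enhancers. The labels do not state the strain, what the FDC allele removes or whether the samples came from separate litters. The p-values therefore measure only the spread between these samples.

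Type I interferons bind the receptor IFNAR, whose kinases JAK1 and TYK2 activate transcription factors of the STAT family. Together with IRF9 these form a complex that binds the interferon-stimulated response element in the promoters of its target genes. The products block viral translation, degrade viral RNA, hold back budding virions and modify proteins with ISG15, and in the lung they are best known from the response to respiratory viruses.

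The promoters are shown first. The selection read no promoter letters, but the members were chosen as genes induced by type I interferon, which acts through this response element. A raised share of the element among them is therefore no independent result. Promoters from RefSeq, on build GRCm38.p6 (mm10), covered 250 bases before to 50 bases after each annotated start and were found for 32 of the 43 members. No entry was matched for Parp14, Oas1b, Ifi27l2a, Oas2, Usp18, Rtp4, Mx1, Ifi27, Tor3a, Parp9 and Mx2. The letters GAAANNGAAA were searched on both strands, overlapping copies included. They were present in 14 of the 32 members (43.8%), against 1079 of 27025 genes with an entry (3.99%) and 456 of 12133 tested genes with one (3.76%). The letters TTCNNNGAA, the core of the site for STAT dimers, were present in 5 of 32 members (15.6%) and in 9.55% of all genes with an entry. In Bst2 a copy of TTCNNNGAA from −136 to −128 overlapped a copy of GAAANNGAAA from −130 to −121.

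Promoter stretches of 7 members with values below, and that of Oas1a, whose genotypes overlapped, follow 5′ to 3′ on the strand of the gene. Capitals mark each copy of the element, also where it lies on the opposite strand and so starts with TTTC. Ifit1 on chr19:34640769-34640848 (+), Ifit3 on chr19:34583372-34583451 (+), Ifit3b on chr19:34607768-34607847 (+), Isg15 on chr4:156200840-156200919 (−), Oas3 on chr5:120777690-120777769 (−), Oas1a on chr5:120907526-120907605 (−), Bst2 on chr8:71537552-71537631 (−) and Trim30a on chr7:104465194-104465273 (−) were read as follows.
Ifit1: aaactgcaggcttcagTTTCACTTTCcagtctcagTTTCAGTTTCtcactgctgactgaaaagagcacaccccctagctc
Ifit3: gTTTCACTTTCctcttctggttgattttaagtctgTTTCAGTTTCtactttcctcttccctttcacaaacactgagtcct
Ifit3b: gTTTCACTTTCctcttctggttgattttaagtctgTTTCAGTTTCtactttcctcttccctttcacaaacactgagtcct
Isg15: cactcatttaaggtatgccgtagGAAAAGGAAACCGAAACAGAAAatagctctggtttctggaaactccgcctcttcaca
Oas3: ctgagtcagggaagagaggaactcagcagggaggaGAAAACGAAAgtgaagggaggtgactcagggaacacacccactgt
Oas1a: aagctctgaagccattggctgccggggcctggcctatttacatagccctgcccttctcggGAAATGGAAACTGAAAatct
Bst2: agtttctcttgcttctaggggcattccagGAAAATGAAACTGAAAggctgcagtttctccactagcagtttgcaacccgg
Trim30a: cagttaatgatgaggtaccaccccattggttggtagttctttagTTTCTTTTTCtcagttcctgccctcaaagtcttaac

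Copies of the element lay at different distances from the start in different members. Ifit1 held 2 copies, from −104 to −95 and from −85 to −76. Isg15 held 3 overlapping copies between −78 and −57, and Bst2 and Oas1a each held an overlapping pair. The stretches of Ifit3 and Ifit3b, which are gene copies 19.2 kb apart, did not differ at any of the 80 bases. Over all members the element lay before the start in 13 genes and only after it in 1 gene, Eif2ak2. A match describes letters only and does not show that a factor was bound in these lungs.

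**Figure D1:**
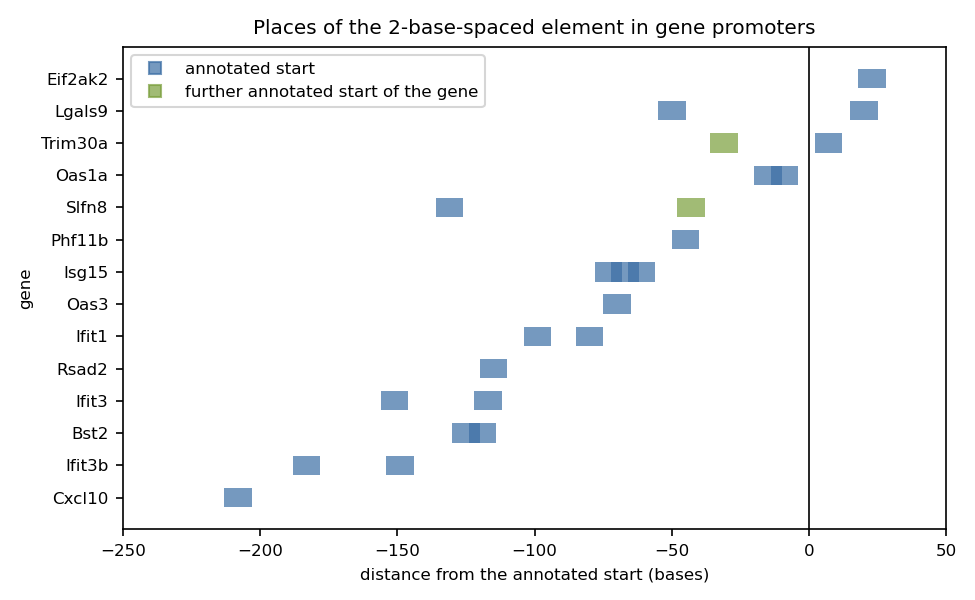
Places of GAAANNGAAA, on either strand, in the RefSeq promoters of the 14 members that held it. The x axis is the distance from the annotated start in bases, the vertical line is the start, blue bars are copies at 1 annotated start and green bars copies at a further start of the same gene. The blue and green bars of Slfn8 are the same copy, measured from different annotated starts. In 13 of the 14 genes at least 1 copy lay before the start.

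Of the 43 members, 42 had enough reads to be tested. Cxcl10, a chemokine that draws T cells, had 0 to 5 reads per library, at most 0.226 CPM (read counts scaled to a common library size), and was not tested. The 6 libraries held 20158689 to 23305306 reads in genes, and CPM values were scaled by the trimmed mean of M values (TMM). Kmt2c itself was measured at 162, 179 and 162 CPM in wild type and at 143, 171 and 159 CPM in knockout (log2 fold change −0.09 ± 0.08 SE, edgeR adjusted p = 0.737). These reads were summed over the whole gene, so they do not check a deletion of a part of it. The tissue label was met by Sftpc, the surfactant protein C gene of alveolar epithelium, which was at 11235 to 13181 CPM in wild type and 11395 to 13630 CPM in knockout libraries.

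Across the 42 tested members, 8 fell in knockout lungs and 0 rose at a Benjamini-Hochberg adjusted p under 0.05 in edgeR's quasi-likelihood test. The 8 were Lgals3bp, Usp18, Ifit1, Phf11d, Trim30a, Ifit3, Cmpk2 and Xaf1. Over all 19042 tested genes, 0.305% passed this threshold as lower and 0.063% as higher. All 42 fold changes were negative, against 47.4% of all genes, and 37 members were lower at an unadjusted p under 0.05, against 6.02% of all genes. In 38 of the 42 members all 3 knockout libraries lay below all 3 wild-type libraries, which held for 8.45% of all genes. The members were selected with this contrast known, so nothing is read from these shares. The median log2 fold change of the members was −0.73, from −1.92 for Ifit3b to −0.12 for Ifi27, and the median over all genes was 0.01.

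**Figure D2:**
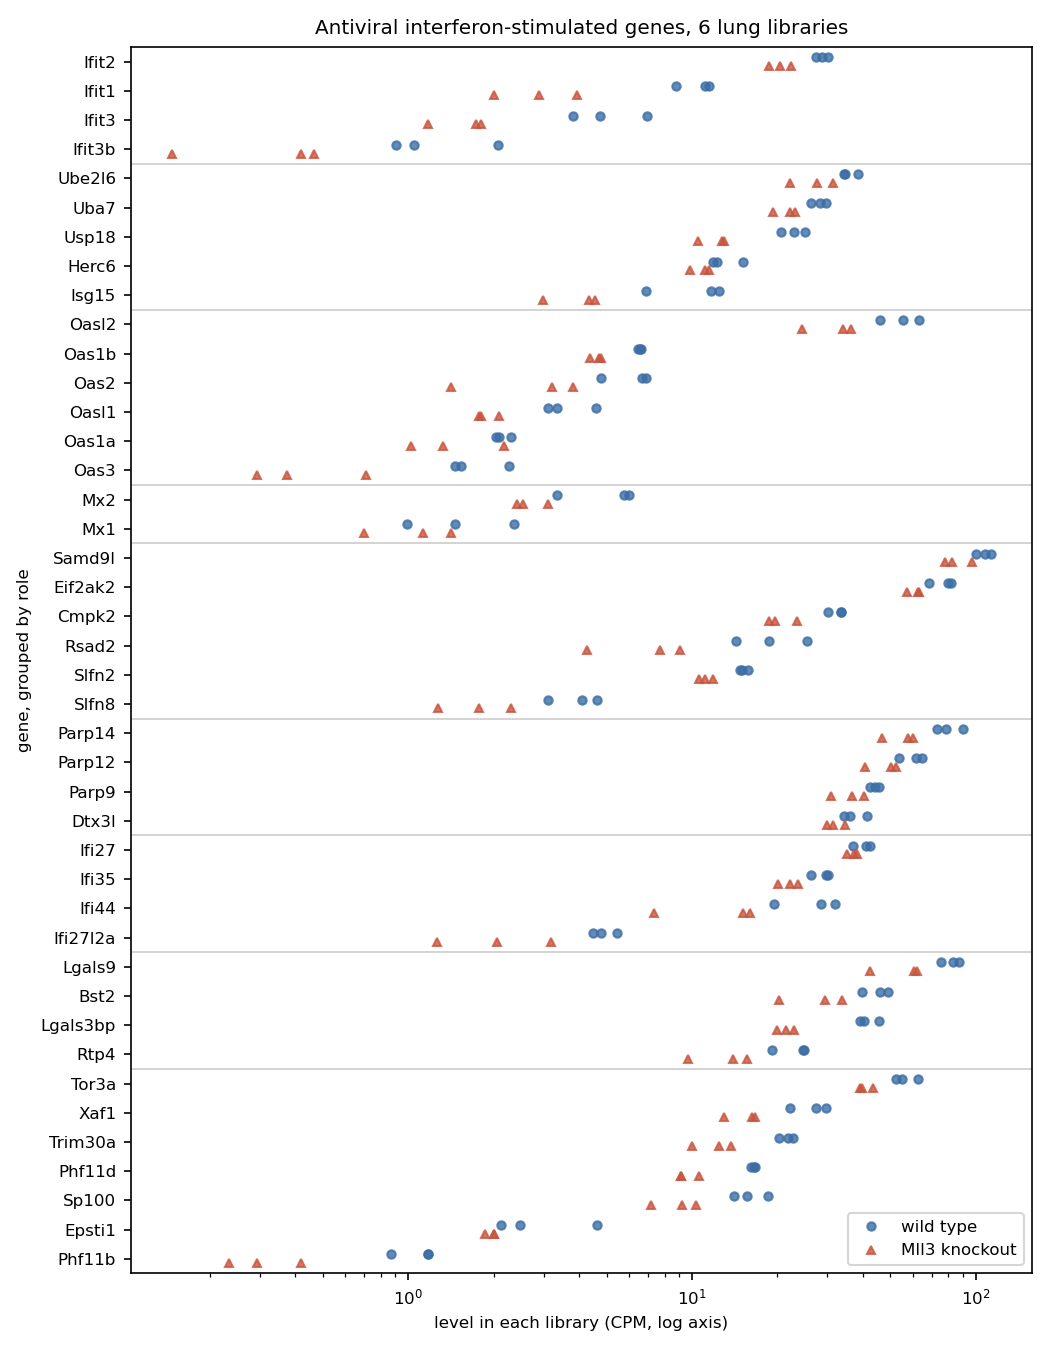
Level of each tested member in each library, in TMM-scaled CPM on a log axis, for 3 wild-type libraries (circles) and 3 knockout libraries (triangles), grouped by role. The genotypes overlapped in 4 members only, Oas1a, Mx1, Dtx3l and Ifi27.

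The IFIT proteins bind viral RNA and block its translation, and the 4 members lie 7.1 to 27.5 kb from one to the next on chromosome 19. Ifit1 (ENSMUSG00000034459, chr19:34640871-34650009, + strand) was at 8.81, 11.1 and 11.5 CPM in wild type and at 3.93, 2.01 and 2.89 CPM in knockout. Every knockout library lay below the lowest wild-type library, and the gene fell 3.53-fold (log2 fold change −1.82 ± 0.23 SE, adjusted p = 0.0209). Ifit3 (ENSMUSG00000074896, chr19:34583531-34588731, + strand) was at 3.79, 4.75 and 6.91 CPM in wild type and at 1.80, 1.17 and 1.73 CPM in knockout. It fell 3.27-fold (−1.71 ± 0.27, adjusted p = 0.0387), with a wider spread among wild-type libraries than Ifit1. Ifit3b, the tandem copy of Ifit3, was at 0.903, 1.05 and 2.07 CPM in wild type and at 0.419, 0.147 and 0.467 CPM in knockout (−1.92 ± 0.47, adjusted p = 0.141). Its groups did not overlap, but its counts were 3 to 44 reads per library and it did not pass. The transcripts of Ifit3 and Ifit3b share much sequence: 41.1% of the 75-base windows of Ifit3 also occur in Ifit3b, and 35.7% of those of Ifit3b in Ifit3, so reads may be assigned to the wrong copy. Ifit2, the most abundant of the 4, was at 27.3, 28.8 and 30.2 CPM in wild type and at 22.3, 18.7 and 20.4 CPM in knockout (−0.49 ± 0.09, adjusted p = 0.0612). Its libraries separated by genotype with little spread, at a smaller size than in the other 3 IFIT members.

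ISG15 is a ubiquitin-like protein that is joined to other proteins by the enzyme chain UBA7, UBE2L6 and HERC6 and removed by USP18, which also restrains signalling at the interferon receptor. Of these 5 genes 1 passed as lower and their median log2 fold change was −0.40. Usp18 (ENSMUSG00000030107, chr6:121245906-121270917, + strand) was at 20.6, 22.8 and 25.0 CPM in wild type and at 12.7, 10.5 and 12.97 CPM in knockout. It fell 1.89-fold (−0.92 ± 0.12, adjusted p = 0.0209), and the gap between the genotypes was wider than the range within either. Isg15 was at 6.91, 11.6 and 12.5 CPM in wild type and at 4.56, 2.98 and 4.34 CPM in knockout (−1.38 ± 0.25, adjusted p = 0.0645). Wild-type library 1 was the low one of its group, still above every knockout library. The conjugating enzymes differed less: Uba7, the activating enzyme, was at 26.2, 29.7 and 28.4 CPM in wild type and at 22.2, 19.3 and 23.1 CPM in knockout (−0.38 ± 0.10, adjusted p = 0.154). Ube2l6 had a log2 fold change of −0.40 and Herc6 of −0.28, neither past the threshold.

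Oligoadenylate synthetases sense double-stranded RNA and switch on RNase L, which cuts RNA. The 6 members grouped here are synthetases and OAS-like genes, and which of them have this activity was not read. None of the 6 passed, and their median log2 fold change was −0.88. There were 5 at an unadjusted p under 0.05 and 2 with DESeq2, which gave Oas3 no adjusted p. Oas3 passed with the title number described below as a term. Oas3 was at 1.54, 2.27 and 1.46 CPM in wild type and at 0.712, 0.293 and 0.373 CPM in knockout (−1.90 ± 0.37, adjusted p = 0.0668). Oasl1 was at 3.12, 4.57 and 3.34 CPM in wild type and at 2.09, 1.81 and 1.77 CPM in knockout (−0.96 ± 0.22, adjusted p = 0.117). The genotypes were apart in both genes, with wild-type library 2 the highest. Oasl2, the most abundant of the group by CPM, was at 45.8, 63.2 and 55.5 CPM in wild type and at 34.0, 24.4 and 36.3 CPM in knockout (−0.80 ± 0.17, adjusted p = 0.131). The log2 fold changes of Oas2, Oas1b and Oas1a were −1.11, −0.51 and −0.50. Oas1a overlapped between genotypes, and 47.6% of its 75-base windows also occur in Oas1g, so its reads may be shared with that copy. Oasl2 and Oasl1 are neighbours on chromosome 5, as are Oas2 and Oas3, 3.2 kb apart.

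The Mx GTPases form rings around viral nucleocapsids, and neither gene passed (1 at an unadjusted p under 0.05, 0 with DESeq2). Mx2 was at 3.34, 5.75 and 6.02 CPM in wild type and at 3.10, 2.54 and 2.43 CPM in knockout (−0.90 ± 0.24, adjusted p = 0.183). Its genotypes were separated only by the small gap between wild-type library 1 and knockout library 1. Mx1 was at 0.994, 2.35 and 1.46 CPM in wild type and at 1.13, 1.42 and 0.700 CPM in knockout (−0.57 ± 0.37, adjusted p = 0.640), and its genotypes overlapped.

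Among 6 effectors that act on nucleotides, RNA or translation, 1 passed and the median was −0.54. Cmpk2 (ENSMUSG00000020638, chr12:26469204-26479837, + strand), a mitochondrial nucleotide kinase, was at 30.2, 33.6 and 33.5 CPM in wild type and at 23.5, 18.7 and 19.6 CPM in knockout. It fell 1.57-fold (−0.65 ± 0.10, adjusted p = 0.0387), with both genotypes tightly grouped. The schlafen gene Slfn8 was at 3.12, 4.62 and 4.09 CPM in wild type and at 2.30, 1.27 and 1.77 CPM in knockout (−1.14 ± 0.26, adjusted p = 0.114). The neighbouring Slfn2 was at 14.7, 15.8 and 15.0 CPM in wild type and at 11.9, 11.1 and 10.6 CPM in knockout (−0.44 ± 0.10, adjusted p = 0.126). Both separated by genotype, Slfn8 with the larger difference and the wider spread. Rsad2, which encodes viperin and lies 12.8 kb from Cmpk2 on chromosome 12, had a log2 fold change of −1.47 ± 0.32 (adjusted p = 0.166; 2.44e-06 with DESeq2). Eif2ak2, the kinase PKR that halts translation, and Samd9l had −0.32 each and did not pass.

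PARP9 and DTX3L form an enzyme complex that adds ADP-ribose and ubiquitin, and none of the 4 genes of this group passed (4 at an unadjusted p under 0.05, 1 with DESeq2). Their median was −0.31, the smallest of the 9 role groups. Parp14 was at 72.8, 90.0 and 78.2 CPM in wild type and at 57.8, 46.7 and 60.1 CPM in knockout (−0.55 ± 0.11, adjusted p = 0.0891). Parp12 was at 53.6, 64.7 and 61.6 CPM in wild type and at 50.2, 40.7 and 52.4 CPM in knockout (−0.33 ± 0.11, adjusted p = 0.288). Knockout library 2 was the lowest in both genes. Parp9 was at 42.4, 45.6 and 44.2 CPM in wild type and at 40.5, 31.0 and 36.7 CPM in knockout (−0.29 ± 0.10, adjusted p = 0.320). Dtx3l was at 34.4, 41.4 and 35.9 CPM in wild type and at 31.3, 29.8 and 34.7 CPM in knockout (−0.22 ± 0.10, adjusted p = 0.444). The gap of Parp9 was narrow and Dtx3l overlapped between genotypes. These 2 genes overlap head to head by 682 bases on opposite strands of chromosome 16, and the counting used strand.

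The IFI group takes its name from interferon-induced proteins, and none of its 4 genes passed (3 at an unadjusted p under 0.05, 1 with DESeq2). Ifi44 was at 19.4, 31.9 and 28.4 CPM in wild type and at 16.0, 7.34 and 15.1 CPM in knockout (−1.05 ± 0.34, adjusted p = 0.368). Ifi27l2a was at 4.47, 4.79 and 5.45 CPM in wild type and at 3.18, 2.05 and 1.26 CPM in knockout (−1.17 ± 0.29, adjusted p = 0.154). The knockout libraries ranged over more than the wild-type libraries in Ifi27l2a, and library 2 was far the lowest knockout in Ifi44. Ifi35 was at 26.3, 29.8 and 30.2 CPM in wild type and at 23.6, 20.1 and 22.2 CPM in knockout (−0.39 ± 0.09, adjusted p = 0.141). Ifi27 was at 36.9, 41.1 and 42.5 CPM in wild type and at 37.3, 35.3 and 38.2 CPM in knockout (−0.12 ± 0.08, adjusted p = 0.652), and its genotypes overlapped. Ifi27 and Ifi27l2a lie 1.9 kb apart on chromosome 12, so neighbours had the smallest difference of all members and one beyond 2-fold.

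Of the membrane, lectin and secreted proteins 1 of 4 tested genes passed and the median was −0.75. Lgals3bp (ENSMUSG00000033880, chr11:118392751-118402092, − strand), a secreted glycoprotein that binds galectins, was at 40.5, 39.1 and 45.7 CPM in wild type and at 21.5, 19.9 and 22.8 CPM in knockout. It fell 1.95-fold (−0.97 ± 0.09, adjusted p = 0.00991), with the lowest p of all members. Bst2, or tetherin, holds budding virions at the cell surface and was at 39.8, 45.9 and 49.1 CPM in wild type and at 33.9, 20.3 and 29.5 CPM in knockout (−0.69 ± 0.18, adjusted p = 0.209). Its genotypes were apart, with knockout library 2 well below the other knockouts. The galectin gene Lgals9 was at 75.5, 87.6 and 82.8 CPM in wild type and at 61.9, 42.3 and 60.3 CPM in knockout (−0.58 ± 0.14, adjusted p = 0.172). Rtp4 was at 19.2, 24.7 and 24.6 CPM in wild type and at 15.6, 9.69 and 14.0 CPM in knockout (−0.80 ± 0.18, adjusted p = 0.129). In both genes the genotypes were apart and knockout library 2 was again lowest.

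The remaining 7 genes, mostly nuclear proteins and a TRIM protein, held 3 of the 8 falls, with a median of −0.78. Phf11d (ENSMUSG00000068245, chr14:59347407-59365470, − strand), a PHD finger gene, was at 16.1, 16.7 and 16.5 CPM in wild type and at 10.6, 9.15 and 9.14 CPM in knockout. It fell 1.71-fold (−0.77 ± 0.11, adjusted p = 0.0276), and its wild-type libraries differed by less than 1 CPM. Trim30a (ENSMUSG00000030921, chr7:104409025-104465193, − strand), which dampens NF-kappaB signalling, was at 20.2, 22.7 and 21.8 CPM in wild type and at 12.4, 9.98 and 13.7 CPM in knockout. It fell 1.79-fold (−0.84 ± 0.12, adjusted p = 0.0347), with the genotypes well apart. Xaf1 (ENSMUSG00000040483, chr11:72301629-72313733, + strand), which binds the apoptosis inhibitor XIAP, was at 22.2, 29.5 and 27.4 CPM in wild type and at 16.3, 12.9 and 16.7 CPM in knockout. It fell 1.72-fold (−0.78 ± 0.13, adjusted p = 0.0467), close to the threshold. The nuclear body gene Sp100 (−0.85, adjusted p = 0.0583), Tor3a (−0.47, adjusted p = 0.0609) and Phf11b (−1.74, adjusted p = 0.0748) were near it on the other side, and Epsti1 had −0.64 (adjusted p = 0.476). Phf11b shares 26.8% of its 75-base windows with other genes, so its counts are uncertain.

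**Figure D3:**
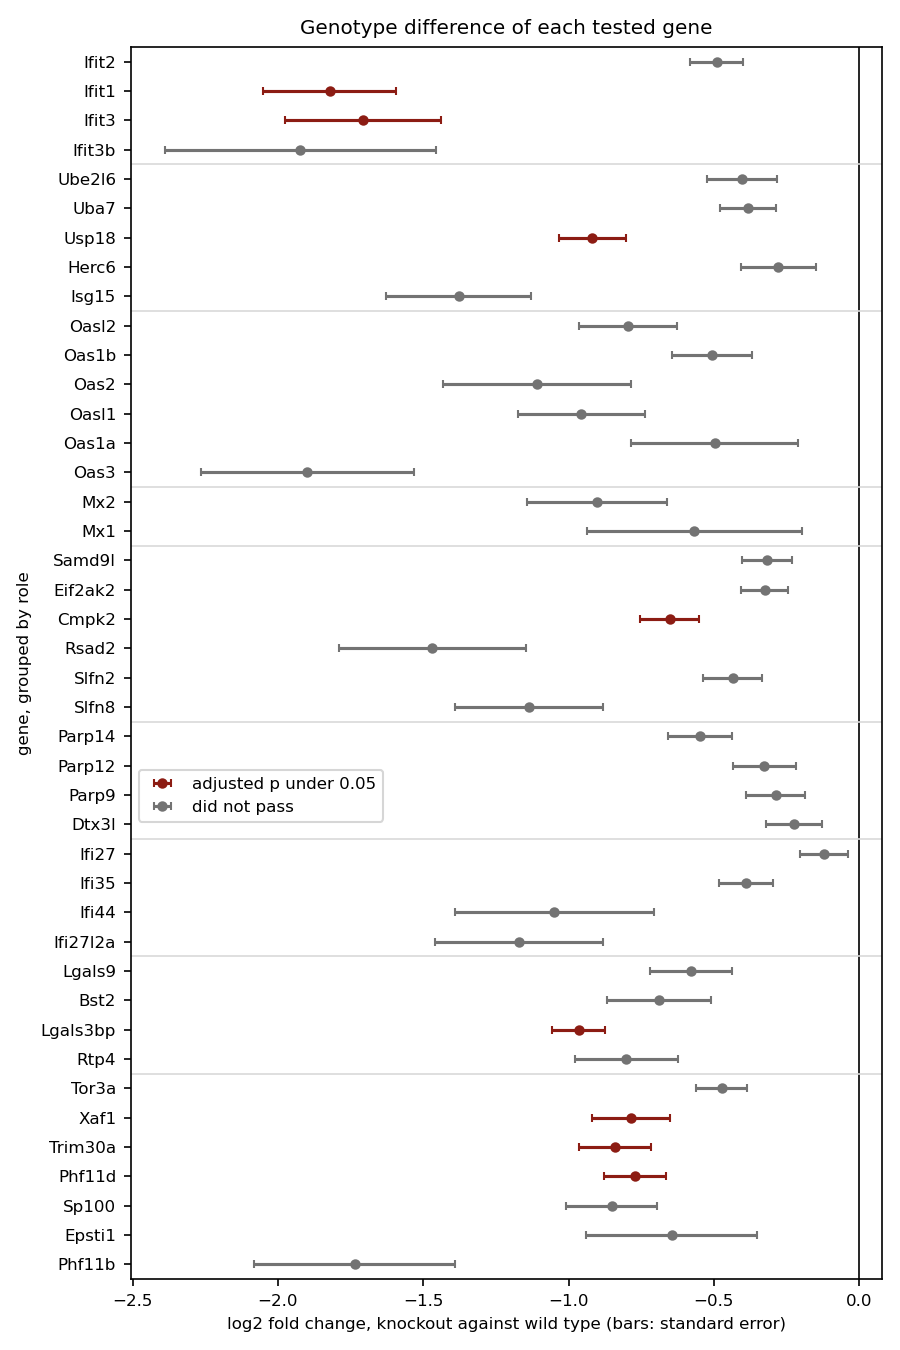
Log2 fold change of each tested member, knockout against wild type, from edgeR; bars are the standard error and genes are grouped by role. All 42 points lie below 0, and the 8 dark red genes passed the adjusted threshold of 0.05.

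The size of the difference varied with the level of the gene. The 15 members with a mean under 10 CPM had a median log2 fold change of −1.14 with a median standard error of 0.29, and 2 of them passed. The 27 more abundant members had a median of −0.55 with a median standard error of 0.11, and 6 passed. Low members thus had larger fold changes and larger errors. Of the 11 members at least 2-fold lower, only Ifit1 and Ifit3 were among the 8.

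Per length of exon, in as RPKM, 13 members were at 10 or more in wild type, 24 from 1 to 10 and 6 under 1. Bst2 was highest at 49.8 ± 5.23 RPKM (SD, n = 3), followed by Lgals9 at 38.4 ± 2.84, Ifi27 at 27.4 ± 1.96 and Samd9l at 19.7 ± 1.21 RPKM, and the first 3 each differed from the next by more than the sum of the SDs. From Samd9l past Ube2l6 at 17.9 ± 1.18 down to Tor3a at 14.5 ± 1.34 RPKM, neighbours differed by less than the sum of their SDs, and their order is not resolved. At the low end, Oas3 was at 0.248 ± 0.0630 RPKM and Cxcl10 at 0.0608 ± 0.0405 RPKM.

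Members with GAAANNGAAA in their promoter differed between genotypes by a median log2 fold change of −1.38 (13 tested members), and members with an entry that lacked it by −0.57 (18 members). The ranges, −1.92 to −0.32 and −1.05 to −0.22, overlapped. Ifit3 and Ifit3b, whose printed stretches did not differ, both count among the 13. The medians were taken at the spacing of 2 only. The members were chosen with these fold changes known, so nothing is read from this difference. The members with the element were also the less abundant ones, 8 of 13 at a mean under 10 CPM against 2 of 18, and the part of the level in this difference was not tested. Among members past the threshold 3 of 7 with an entry held the element, and among the others 11 of 25. These counts depended on the spacing of the GAAA blocks: with 1 to 3 bases between them, 6 of 7 and 15 of 25 held a match. Lgals3bp, Cmpk2, Phf11d and Xaf1 had no match at the spacing of 2, and of these only Cmpk2 had none at spacings of 1 to 3. Oas1a, whose genotypes overlapped, held an overlapping pair of copies at the spacing of 2.

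The members also varied together among libraries of the same genotype. Each library's log2 level was taken as a deviation from the mean of its own genotype, which removes the difference the members were selected on. Over the 6 libraries, the median Pearson correlation of these deviations between pairs of 40 members with a mean of at least 1 CPM was 0.625, and 88.8% of 780 pairs were positive. Over all 16914 genes at that level the median was 0.000, and 50% of pairs were positive. The points share the library and its depth, and 6 libraries with the genotype means removed leave few independent values. The number in the sample titles, described below, was not removed. The members were chosen as genes induced by type I interferon, so a raised correlation among them is no independent result. Rtp4 (0.994), Ifi44 (0.989) and Ifi35 (0.971) followed the mean of the other members most closely. Mx1 (0.054) and Samd9l (−0.196) did not follow it, and Lgals3bp, the member with the lowest p, did so only in part (0.487).

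Single libraries stood out in this shared variation. Knockout library 2 was the lowest knockout in 33 of the 42 members, and wild-type library 1 was the highest wild type in only 2. The summed level of all 43 members was 1051, 1205 and 1185 CPM in wild type and 828, 685 and 843 CPM in knockout. The median deviation of the 42 tested members from the wild-type mean was −0.13, 0.07 and 0.07 on the log2 scale in wild type and −0.53, −0.93 and −0.65 in knockout. Even the lowest wild-type library was above every knockout library on both measures.

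**Figure D4:**
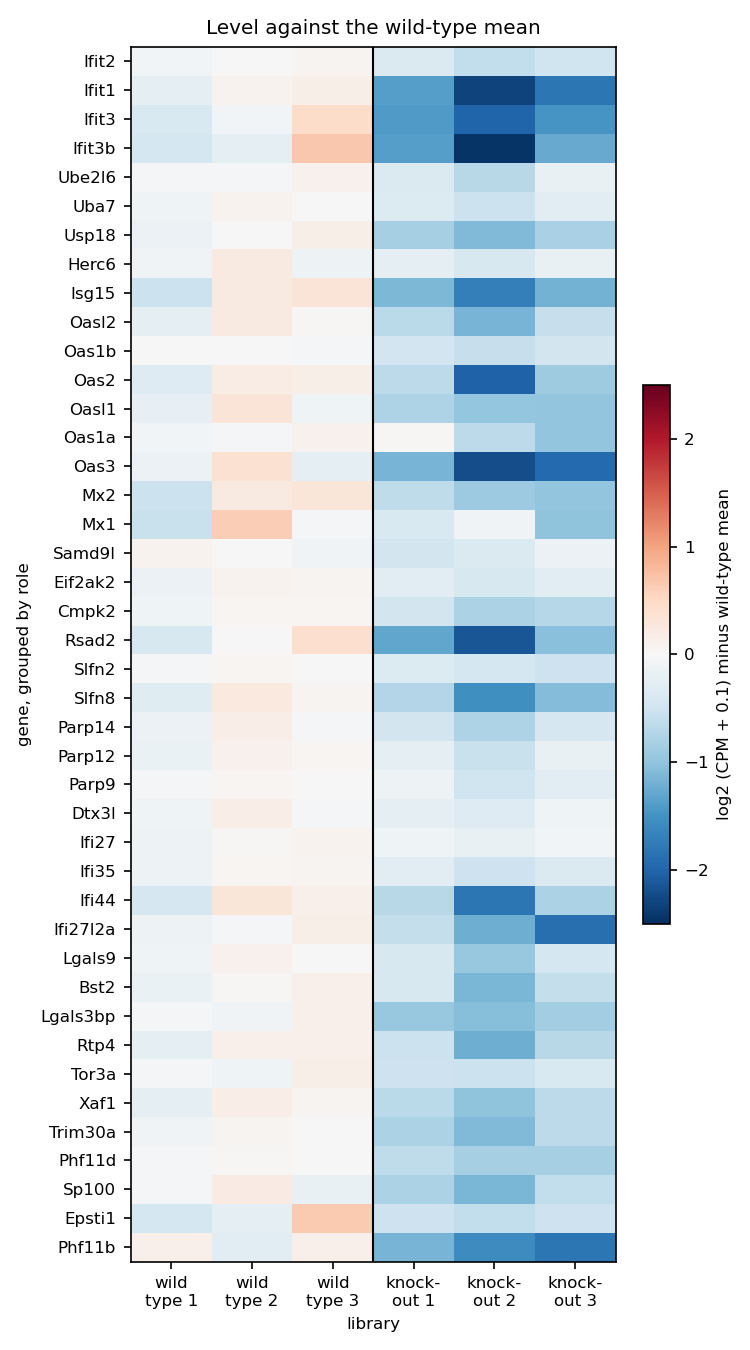
Log2 (CPM + 0.1) of each tested member in each library minus the mean of the 3 wild-type libraries, grouped by role; red is above the wild-type mean and blue below it. Knockout library 2 is the darkest column, as the lowest knockout in 33 of 42 members, and wild-type library 1 is mostly pale blue, since it was the highest wild type in only 2.

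Sample titles begin with AK7986 for wild-type libraries 1 and 2 and knockout library 1, and with AK7987 for wild-type library 3 and knockout libraries 2 and 3; what the numbers mean is not stated in the labels. Within AK7986 the median log2 difference of the members was −0.49, with 41 of 42 negative and Oas1a the exception, and within AK7987 it was −0.88, with 42 of 42 negative. With this number as a term beside genotype, edgeR called 15 members lower, where 2.54% of all genes were called lower. They were the 8 named above and Ifit2, Ifit3b, Oas3, Slfn8, Sp100, Phf11b and Tor3a, the last 7 at adjusted p from 0.00953 (Tor3a) to 0.0470 (Slfn8). DESeq2 called 21 members lower, where 1.76% of the genes given an adjusted p were. Of the tested members it gave no adjusted p to Ifit3b, Oas3 and Phf11b. Without wild-type library 2 or 3 edgeR called 0 members and 0 of all genes lower, while 34 and 37 members had an unadjusted p below 0.05. It called 1 member without wild-type library 1 (Lgals3bp), where 0.0154% of all genes were called lower, and 7 without knockout library 1 (0.184%). Without knockout library 2 it called 2 (0.0361%) and without knockout library 3 it called 3 (0.122%). Calls over all genes thus fell too, and all 42 fold changes stayed negative each time.

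The other genes of the pathway were counted in the same test. Over all 19042 tested genes, 2043 had an unadjusted p under 0.05 in either direction, and DESeq2 called 1.76% of its genes lower. The interferons themselves, 21 genes of types I, II and III, had 11 reads in all over the 6 libraries, spread over 6 genes, and none could be tested. Ifnb1, interferon beta, had 0 reads in every library. The receptor genes Ifnar1 (log2 fold change −0.01 ± 0.07, adjusted p = 0.978) and Ifnar2 (−0.11 ± 0.09, adjusted p = 0.688) overlapped between genotypes. Among 19 receptor, JAK and STAT genes none passed (3 at an unadjusted p under 0.05, 3 with DESeq2), with a median of −0.05. Stat2 was at 61.0, 74.1 and 65.8 CPM in wild type and at 50.4, 46.3 and 50.9 CPM in knockout (−0.45 ± 0.09, adjusted p = 0.0646). Its genotypes were apart, as were those of its partner Irf9, at −0.45 ± 0.09 (adjusted p = 0.0661).

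Of the interferon regulatory factors 1 of 8 tested genes passed. Irf7, the factor that amplifies interferon transcription, was at 18.2, 23.3 and 21.1 CPM in wild type and at 11.6, 8.80 and 9.70 CPM in knockout (−1.05 ± 0.13, adjusted p = 0.0209). Nucleic acid sensors held 0 of 22 past the threshold (9 at an unadjusted p under 0.05, 2 with DESeq2) and a median of −0.17. Dhx58 (−0.85 ± 0.16, adjusted p = 0.0612) and Ifih1 (−0.50 ± 0.12, adjusted p = 0.136), both RNA helicases that sense viral RNA, had the lowest p there. Of 58 tested genes in a list of further interferon-stimulated genes 6 fell, with a median of −0.39 and 52 negative. These were Ifi203 (−1.40), Ly6c1 (−0.80), Slfn5 (−0.59), Ly6a (−1.01), Ifi204 (−0.97) and Ly6e (−0.47), with adjusted p from 0.0157 to 0.0433. Of 20 genes for antigen presentation by MHC class I 1 fell, the light chain gene B2m (−0.43 ± 0.07, adjusted p = 0.0387), and H2-T23 came next at −0.47 (adjusted p = 0.152). None of these lists held a gene that rose. The lists were drawn up with results of these data known and are no independent evidence of direction.

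**Figure D5:**
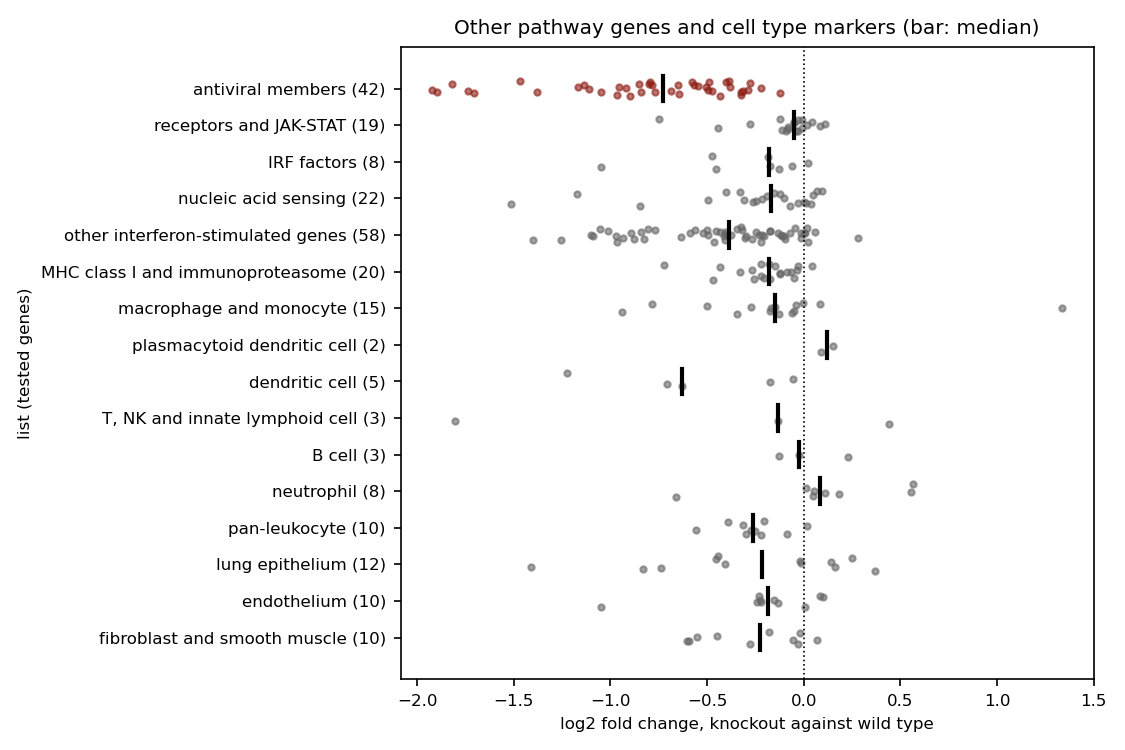
Log2 fold change, knockout against wild type, of every tested gene in the antiviral set (dark red), in the other interferon pathway lists and in the cell type marker lists (grey); the number tested is in brackets and the black bar is the median. The antiviral set has the lowest median, −0.73, followed by the dendritic cell markers, −0.63, of which 5 were tested.

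In whole lung RNA, fewer cells of a type and less RNA per cell cannot be told apart, so markers of blood cells were read beside these results. The summed level of 10 pan-leukocyte markers was 193, 170 and 139 CPM in wild type and at 164, 124 and 140 CPM in knockout, overlapping between genotypes, and none of the 10 passed (3 at an unadjusted p under 0.05, 0 with DESeq2). The lowest p values were those of Cd53 (−0.56, adjusted p = 0.243) and Laptm5 (−0.31, adjusted p = 0.337). Ptprc, which encodes the leukocyte antigen CD45, was at 24.7, 23.7 and 16.4 CPM in wild type and at 19.0, 18.0 and 16.8 CPM in knockout (−0.27 ± 0.15, adjusted p = 0.562). In the same order of libraries, the antiviral members summed to 1051, 1205 and 1185 CPM in wild type and 828, 685 and 843 CPM in knockout. How the leukocyte and antiviral sums relate was not tested. The sum of 15 macrophage and monocyte markers was 1566, 1122 and 1163 CPM in wild type and at 802, 709 and 904 CPM in knockout, and did separate the genotypes. Most of it was the lysozyme gene Lyz2, named here after its values were seen (−0.94 ± 0.20, adjusted p = 0.154). The sum thus reads mainly 1 gene, and which cells its RNA came from was not tested. Without Lyz2 the sums were 333, 325 and 310 CPM against 307, 300 and 303 CPM, still apart but by a small margin. None of the 15 passed (5 at an unadjusted p under 0.05; DESeq2 called 2 lower and 1 higher), and the lowest p values were those of the Fc receptor gene Fcgr1 (−0.79, adjusted p = 0.114) and the mannose receptor gene Mrc1 (−0.27, adjusted p = 0.154).

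Plasmacytoid dendritic cells are the main blood source of type I interferon, and their defining markers were near the limit of these libraries. Siglech had 4 to 11 reads per library and Cd209d 0 in all, and the sum of the 8 markers was 2.30 to 11.1 CPM in wild type and 2.93 to 5.63 CPM in knockout. The 11.1 CPM of wild-type library 1 came largely from Ly6d, with 133 reads there and 2 to 30 in the other libraries. Dendritic cell markers summed to 54.9 to 63.4 CPM in wild type and 51.7 to 55.1 CPM in knockout, overlapping between genotypes. Of these 10 markers 5 were tested and none passed (3 at an unadjusted p under 0.05, 0 with DESeq2). All 5 fold changes were negative, with a median of −0.63. In 3 of the 5 all knockout libraries lay below all wild-type libraries, against 8.45% of all genes. The lowest p values in this list were those of H2-Aa (−0.70, adjusted p = 0.193) and H2-Ab1 (−0.63, adjusted p = 0.344). Markers of T, NK and innate lymphoid cells summed to 29.3 to 33.5 CPM in wild type and 26.6 to 31.2 CPM in knockout, those of B cells to 29.3 to 30.8 and 27.5 to 39.8 CPM, and those of neutrophils to 29.2 to 47.3 and 24.4 to 59.4 CPM. All 3 sums overlapped between genotypes, and the lowest p among their genes was that of Gzma, granzyme A of cytotoxic cells, at a mean of 0.967 CPM in wild type and at 0.269 CPM in knockout (−1.81, adjusted p = 0.0970). Of 12 epithelial markers Aqp5 (−1.41, adjusted p = 0.0423) and Pdpn (−0.74, adjusted p = 0.0387), both of flat alveolar type I cells, fell. Of the 12 fold changes 8 were negative, and in 2 markers all knockout libraries lay above all wild-type libraries. DESeq2 called 4 lower and 1 higher. The epithelial sums overlapped between genotypes, at 16932 to 19411 CPM in wild type and 16622 to 20072 CPM in knockout. Of 10 endothelial markers the capillary gene Car4 fell (−1.05, adjusted p = 0.0347), and of 10 fibroblast and muscle markers none passed (0 at an unadjusted p under 0.05, 0 with DESeq2). The part of any of these cell types in the differences of the antiviral genes was not tested.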

How the data were processed

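RNA was measured in 6 samples of whole fetal mouse lung by strand-specific poly(A) RNA-seq with 75-base single reads, per the labels. The deposited count table was made by the authors with featureCounts 1.6.3 on GSNAP alignments, counting the reverse strand and reads of mapping quality at least 1 against Ensembl release 98 on mm10, per the file headers. The submitters' processing notes also name bcl2fastq 2.19.1, GSNAP and DESeq2 1.24.0. The deposited normalized table holds signal values that equal the counts divided by 1 size factor per library: multiplied back, 100% of values matched the counts within 0.1 read. The 92 rows that name no gene held 1 read and were left out.

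Counts were fitted in R 4.3.3 with edgeR 4.0.16 (TMM scaling, filterByExpr, robust quasi-likelihood test, no covariate) over all 19042 genes that passed the filter, with Benjamini-Hochberg adjustment. CPM are counts scaled to a common TMM-adjusted library size, and the standard error of a fold change is its size divided by the square root of the test's F. Tested genes held 99.8% to 99.9% of reads in each library. RPKM used the deposited exon lengths. Alternatives were DESeq2 1.42.0, limma 3.58.1, other scalings and filters, the number in the sample titles as a term, limma on the deposited normalized signal as log2(value + 1), and leaving out each library. The fits were tested on simulated data. The members and lists were chosen with earlier results of these data known. Values per library are given for members past the threshold and for the 3 members with the lowest p in each role group, or all tested in groups of 4 or fewer. In other lists the genes past the threshold, otherwise the 2 with the lowest p, were eligible to be named, with Irf7, Stat2, Irf9, Ifnb1, Ifnar1, Ifnar2, Kmt2c, Ptprc and Sftpc always given; 1 gene that this rule names is not reported here. Shared 75-base windows were counted over GENCODE transcripts.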

Additional observations from a re-analysis of the deposited data

How the results depend on the processing

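All 42 tested members, or 40 of 40 under the filter of at least 1 CPM in 3 libraries, kept a negative fold change in every alternative, and of 586 pairs of a member and an alternative 500 kept their side of the threshold, 45 lost the call, 41 gained it and 0 changed sign. The count of members called lower, 8, became 21 with DESeq2, 1 with limma voom, 26 with no filter on low counts, 15 with the number in the titles as a term and 15 at an adjusted p under 0.10. The shares of all genes called lower in the first 4 were 1.76%, 0.042%, 0.982% and 2.54%, against 0.305% in the reported test. Leaving out 1 library gave 0 to 7 members and 0 to 0.184% of all genes, with 0 of both without wild-type library 2 or 3. The count of pathway genes called lower, 8, became 26 with DESeq2, 1 with voom, 30 with no filter, 25 with the title number and 19 at 0.10, and 0 to 5 among the leave-one-out fits that moved it. The share of member promoters with the element, 43.8%, became 65.6% when spacings of 1 to 3 bases were allowed, against 9.91% of all genes. Ifit3b and Oas3 rest on few reads in the knockout libraries. The replicate numbers follow accession order and pair no samples, so the only block fitted was the number in the titles, which both genotypes share.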
